A study of Mus musculus with 57 samples.

Results

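The effect of the CALM-AF10 fusion gene that was common to 4 blood-forming tissues of clinically healthy mice was measured on 33 of the 57 arrays of the series. All 15 arrays of clinically healthy CA10 mice were set against the 18 wild-type arrays of the same tissues. CA10 mice carry the human CALM-AF10 fusion as a transgene driven by the vav promoter, which is active throughout the blood system. They were called clinically healthy when they showed no sign of leukemia. Lineage-negative bone marrow, which is marrow depleted of mature blood cells, gave 3 CA10 and 3 wild-type arrays. Spleen gave 5 CA10 and 2 wild-type arrays, thymus 4 CA10 and 7 wild-type arrays, and whole bone marrow 3 CA10 and 6 wild-type arrays. Wild-type tissue came from littermates of the same age where that was possible, and no mouse was treated. The 3 wild-type marrows labelled C57B6 were left out, the strain of the other mice is not in the labels, and ages and transgenic lines were not found in the sources used here. No label states that the arrays come from different mice, and the tests therefore reflect array-to-array spread alone.

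Each value below is a log2 array signal, and each change is CA10 minus wild type on that log2 scale. The shared change of a gene is the difference between the genotypes in 1 linear model over the 33 arrays in which every tissue keeps its own level. It is therefore a weighted mean of the 4 differences within tissues. A gene was called when its p-value in limma, Benjamini-Hochberg adjusted across the 15314 genes tested, was under 0.05.

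Some arrays stood apart before any comparison was made. On 9 of the 33 arrays the signals had a narrow spread, with a 75th percentile of at most 7.15, against 7.25 or more on the others. These were 1 CA10 and 1 wild-type lineage-negative marrow, all 3 CA10 whole marrows, 3 of the 6 wild-type whole marrows and 1 wild-type thymus. The library labelled wild-type thymus 2 went against its label. Its signal for Rag1, the recombinase gene of developing T cells, was 4.06, against 12.26 to 13.10 in the other wild-type thymuses. Its Krt8, a keratin of thymic epithelium, stood at 5.47, against 10.88 or more in the other wild-type thymuses, and its B cell gene Ms4a1 at 10.53, against 7.92 or less. CA10 thymus 3 was lower than the other CA10 thymuses in Rag1 (11.49) and Krt8 (9.18). In CA10 spleens 1 and 3 the early granule gene Mpo was 13.01 and 12.97, against 9.76, 7.67 and 7.23 in the other CA10 spleens and 8.21 and 8.71 in wild-type spleens. The Gapdh 3′ minus 5′ signal, a measure of RNA integrity, was 2.09 in CA10 spleen 1 and at most 0.63 in the other 32 arrays. Xist and Eif2s3y separated 9 male and 6 female CA10 arrays, and 10 male and 8 female wild-type arrays. Of the wild-type whole marrows the wide arrays were all male and the narrow ones all female. Spread and sex therefore cannot be told apart where these arrays are compared below. Results are given with and without the arrays in doubt where that changed them.

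The HOXA cluster encodes homeobox transcription factors that pattern the embryo and that are also active in blood stem and progenitor cells. Their genes are normally shut down as blood cells mature. MEIS1 and the PBX proteins are homeobox cofactors that bind DNA together with HOX proteins. CALM-AF10 joins an endocytosis protein to AF10, a partner of the histone methyltransferase DOT1L, and high HOXA expression is a known feature of leukemias that carry it. The comparison asks which genes were changed in every tissue of mice that carry the fusion but are not ill.

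In CA10 tissues 3 genes rose together in all 4 tissues: Hoxa9, its cofactor gene Meis1, and Hoxa10. Hoxa9 was 12.9-fold higher in CA10 than in wild type (95% interval 7.2 to 23.1), Meis1 3.02-fold (2.21 to 4.12) and Hoxa10 2.68-fold (1.94 to 3.7). These folds belong to 1 probe set a gene and depend on low wild-type signals. Wild-type Hoxa9 was 3.59 to 4.27 in thymus and spleen, and wild-type Hoxa10 was 3.35 to 4.04 in all tissues. These values were below the array medians of 5.44 to 5.73. CA10 Hoxa10 was also below those medians in spleen (4.13 to 4.83) and whole marrow (4.71 to 4.86). A second Hoxa9 probe set gave a log2 change of 0.99. These were the only genes called, 0.0196% of the 15314 tested. No gene was called lower by limma. At an unadjusted p under 0.05, 415 genes were higher (2.71%) and 466 lower (3.04%), which together are 5.75% of those tested. The median SE of a shared change was 0.14, and 13 genes had a shared change of at least 1 in size. The largest that was not called was 1.36, for the neutrophil gene S100a9.

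**Figure D1:**
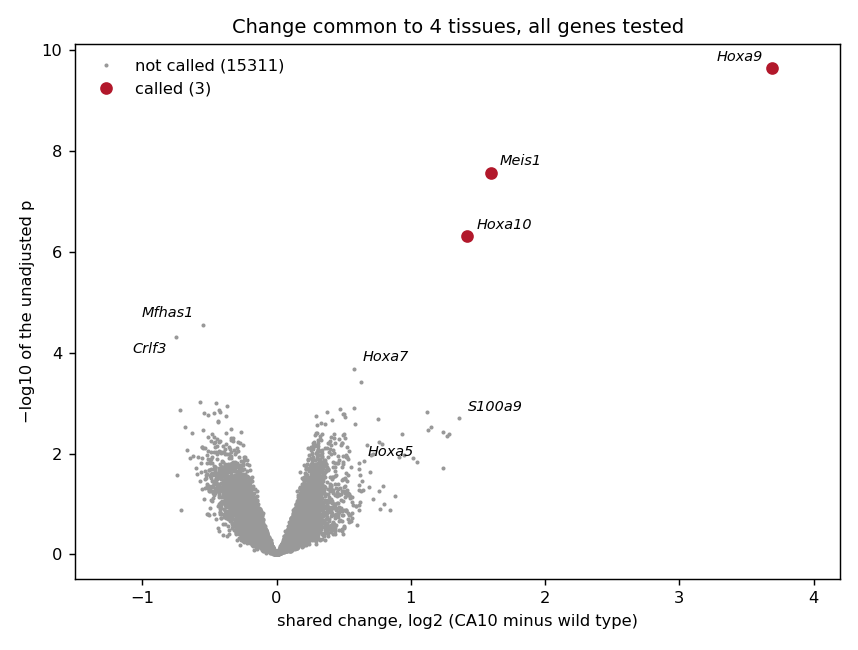
Shared change on the x axis (log2, CA10 minus wild type) against −log10 of the unadjusted p on the y axis for 15314 genes; red points are the 3 genes called. Hoxa9, Meis1 and Hoxa10 lie apart from the remaining genes, at changes of 3.69, 1.59 and 1.42.

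Both HOXA genes lie on chromosome 6 and Meis1 on chromosome 11. The 250 bases before their RefSeq starts are shown because the 3 genes rose together. They are read along the gene, 5′ to 3′, on the minus strand of GRCm38, at chr6:52227371-52227620 (Hoxa9), chr6:52240855-52241104 (first Hoxa10 start), chr6:52234940-52235189 (second Hoxa10 start) and chr11:19018970-19019219 (Meis1). Capitals mark a match to the TATA motif.
Hoxa9 promoter: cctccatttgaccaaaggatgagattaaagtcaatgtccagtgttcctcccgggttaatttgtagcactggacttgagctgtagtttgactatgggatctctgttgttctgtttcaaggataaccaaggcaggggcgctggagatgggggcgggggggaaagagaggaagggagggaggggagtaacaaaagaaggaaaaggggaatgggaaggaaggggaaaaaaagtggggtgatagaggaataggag
Hoxa10 promoter, first start: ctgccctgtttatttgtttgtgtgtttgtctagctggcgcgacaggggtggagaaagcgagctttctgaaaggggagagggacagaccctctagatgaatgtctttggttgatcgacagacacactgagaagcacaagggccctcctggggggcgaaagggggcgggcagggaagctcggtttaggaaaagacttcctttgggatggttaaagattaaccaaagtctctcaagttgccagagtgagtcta
Hoxa10 promoter, second start: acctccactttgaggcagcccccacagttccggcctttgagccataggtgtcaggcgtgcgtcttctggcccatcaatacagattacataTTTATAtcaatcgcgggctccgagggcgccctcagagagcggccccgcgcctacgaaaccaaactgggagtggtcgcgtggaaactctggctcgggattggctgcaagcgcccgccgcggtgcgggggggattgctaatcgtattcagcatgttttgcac
Meis1 promoter: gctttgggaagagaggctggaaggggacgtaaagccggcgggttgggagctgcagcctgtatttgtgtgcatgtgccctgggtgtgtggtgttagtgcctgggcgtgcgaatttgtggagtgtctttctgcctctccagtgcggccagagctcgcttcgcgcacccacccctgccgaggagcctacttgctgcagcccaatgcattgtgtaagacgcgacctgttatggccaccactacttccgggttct
The numbers of CpG pairs were 3 for Hoxa9, 7 and 20 for the Hoxa10 starts and 13 for Meis1, against a median of 6 over 32851 promoters of the same length. Both strands were searched for 4 motifs, which can overlap each other. The MEIS motif was TGACAG. The motif for HOX with PBX was TGATTNAT. The motif for HOX9 to HOX13 was TTTATNG, and the TATA motif was TATAAA. Over all 32851 promoters 15.9% held the MEIS letters, 2.82% those for HOX with PBX, 9.81% those for HOX9 to HOX13 and 12.4% the TATA letters. The only match in the 4 sequences was the TATA motif, read on the opposite strand 160 bases before the second Hoxa10 start.

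Hoxa9, the HOXA gene most studied in blood stem cells and myeloid leukemia, showed the largest shared change of all genes tested. In lineage-negative marrow its signal was 9.91, 10.01 and 10.03 on CA10 arrays, against 8.24, 8.07 and 7.16 on wild-type arrays. In spleen it was 9.70, 8.11, 9.04, 8.13 and 7.89 in CA10, against 4.27 and 3.96 in wild type. Neither tissue had a wild-type array within the CA10 range. CA10 thymuses had 11.16, 9.18, 5.78 and 11.16, against a lowest, median and highest of 3.59, 3.92 and 4.26 in 7 wild-type thymuses. CA10 whole marrow had 7.90, 7.65 and 7.76, against 5.06, 5.51 and 6.81 (lowest, median and highest of 6) in wild type. Again the groups did not overlap, so Hoxa9 separated the genotypes in every tissue, the single gene of 15314 to do so in the upward direction (0.00653%). Within 1 tissue such upward separation was found for 1.31% of genes in lineage-negative marrow, 4.22% in spleen, 0.157% in thymus and 2.2% in whole marrow. The lowest CA10 value was that of CA10 thymus 3, the array with low thymus markers. The shared change was 3.69 ± 0.41 (SE, adjusted p = 3.5e-06 in limma). In these bulk samples more cells with Hoxa9 RNA and more RNA per cell cannot be told apart.

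The Hoxa9 difference was larger in spleen and thymus, where its wild-type level was lowest. Wild-type means were 7.82 in lineage-negative marrow, 5.70 in whole marrow, 4.11 in spleen and 3.90 in thymus. CA10 means were closer together, at 9.98, 7.77, 8.57 and 9.32 in the same order of tissues. The difference was thus 2.16 and 2.07 in the marrow samples but 4.46 in spleen and 5.42 in thymus. The F test of limma for a difference between tissues, described further on, did not call Hoxa9 after adjustment over all genes (adjusted p = 0.9997). Without the 3 thymuses that stood apart (wild-type thymuses 2 and 6 and CA10 thymus 3) it was called, with an adjusted p of 9.51e-05.

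Meis1, which encodes the homeobox cofactor that most often accompanies Hoxa9 in leukemia, was higher in the same tissues. Lineage-negative CA10 marrow had 7.82, 7.80 and 8.23, against 7.56, 6.57 and 6.68 in wild type. CA10 spleens had 8.29, 7.79, 9.26, 8.95 and 7.91, against 6.46 and 6.21 in wild-type spleens. In both tissues every CA10 array was above every wild-type array. CA10 thymuses had 9.57, 7.75, 6.65 and 9.05, against 5.65, 5.83 and 6.68 (lowest, median and highest of 7) in wild type. Whole marrow had 7.09, 7.01 and 6.84 in CA10, against 5.76, 5.98 and 6.52 (lowest, median and highest of 6) in wild type. The thymus groups overlapped at a single CA10 array, again thymus 3, whereas whole marrow did not overlap. The shared change was 1.59 ± 0.22 (SE, adjusted p = 0.000206 in limma), made up of 1.01 in lineage-negative marrow, 2.10 in spleen, 2.17 in thymus and 0.93 in whole marrow. A second Meis1 probe set gave 1.75 ± 0.23 and did not overlap between the genotypes in any tissue, and another, with low signals, gave 0.29 ± 0.12.

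Hoxa10, the neighbour of Hoxa9 in the cluster and itself able to block myeloid differentiation when overexpressed, was the remaining gene called. Lineage-negative CA10 marrow had 5.93, 6.17 and 5.69, against 3.93, 3.88 and 3.79 in wild type. CA10 spleens had 4.83, 4.36, 4.37, 4.19 and 4.13, against 3.79 and 3.63 in wild type. The groups were apart in both, by a wide margin in lineage-negative marrow and a small one in spleen. CA10 thymuses had 5.80, 4.71, 3.48 and 7.61, against 3.35, 3.54 and 3.74 (lowest, median and highest of 7) in wild type. CA10 whole marrow had 4.86, 4.86 and 4.71, against 3.55, 3.96 and 4.04 (lowest, median and highest of 6) in wild type. CA10 thymus 3 lay within the wild-type range, and all other CA10 arrays of both tissues lay above it. The shared change was 1.42 ± 0.23 (SE, adjusted p = 0.0025 in limma). Meis1 and Hoxa10 were the 2 genes whose groups were apart and higher in 3 of the 4 tissues (0.0131% of those tested).

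**Figure D2:**
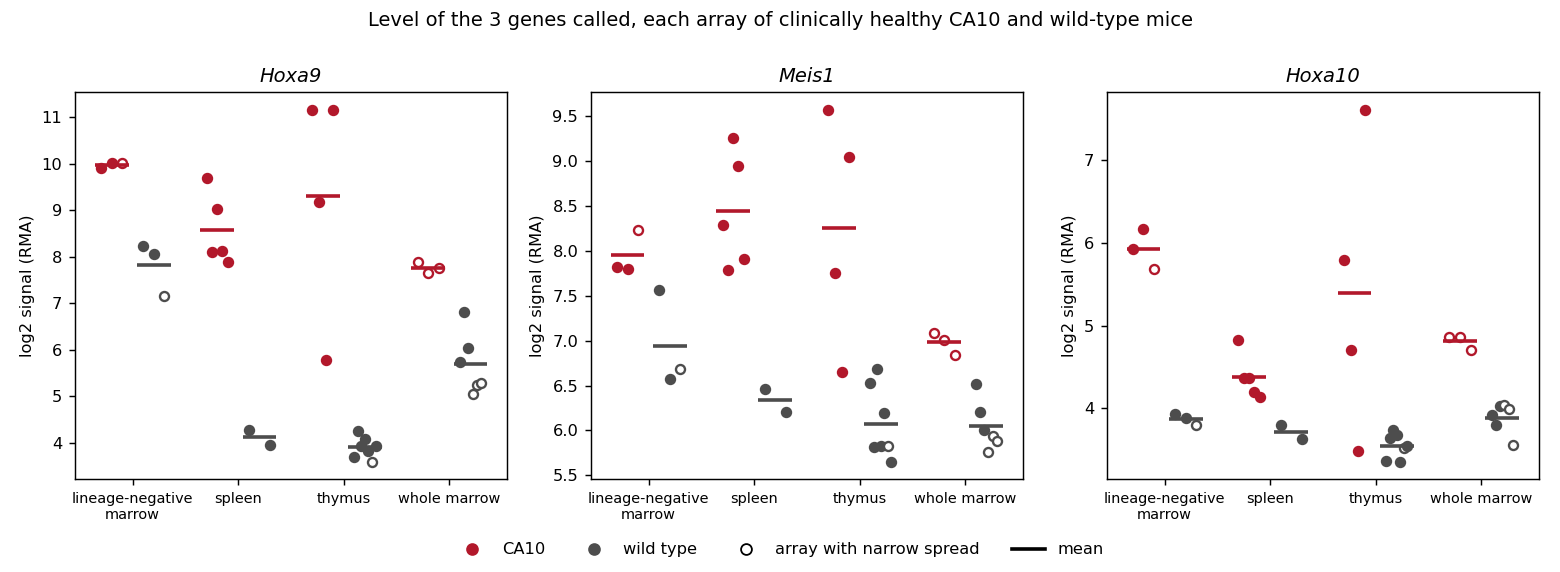
Log2 signal (y axis) of Hoxa9, Meis1 and Hoxa10 on each array, by tissue (x axis), CA10 in red left of wild type in grey; bars are means and open points are the 9 arrays with a narrow spread. Every CA10 array exceeds every wild-type array of its tissue except CA10 thymus 3 for Meis1 (6.65) and Hoxa10 (3.48).

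CA10 thymus 3 was the lowest CA10 thymus for each of the 3 genes. CA10 thymuses 1 and 4 had the highest Hoxa9, 11.16 on both, and these arrays also had the highest Meis1 and Hoxa10 of the group. CA10 spleens 4 and 5, whose Mpo signals of 7.67 and 7.23 were below the wild-type spleens, had Hoxa9 at 8.13 and 7.89, against 4.27 and 3.96 in wild-type spleens. Leaving out CA10 spleens 1 and 3 left a shared change of 3.58 for Hoxa9, 1.54 for Meis1 and 1.42 for Hoxa10, all called. Leaving out the 3 thymuses gave 3.84, 1.66 and 1.56, all called, and 5 genes called in all.

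The narrow arrays were also examined alone. Over the 9 narrow arrays the shared change was 2.65 for Hoxa9, 1.23 for Meis1 (both called) and 1.19 for Hoxa10 (adjusted p = 0.0514). Over the 24 wide arrays it was 4.36 and 1.84 (both called) and 1.56 (adjusted p = 0.375). The narrow arrays included no spleen and no CA10 thymus, so their change comes from marrow alone. The wide arrays included no CA10 whole marrow, so theirs comes from the other tissues. In whole marrow, where all CA10 arrays were narrow, the 3 narrow wild-type arrays had Hoxa9 at 5.06, 5.24 and 5.29, against 7.65 or more in CA10. Hoxa9 and Meis1 were called whichever tissue was left out. Hoxa10 lost its call without lineage-negative marrow (1.26, adjusted p = 0.346) and without whole marrow (1.60, adjusted p = 0.0921).

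**Figure D3:**
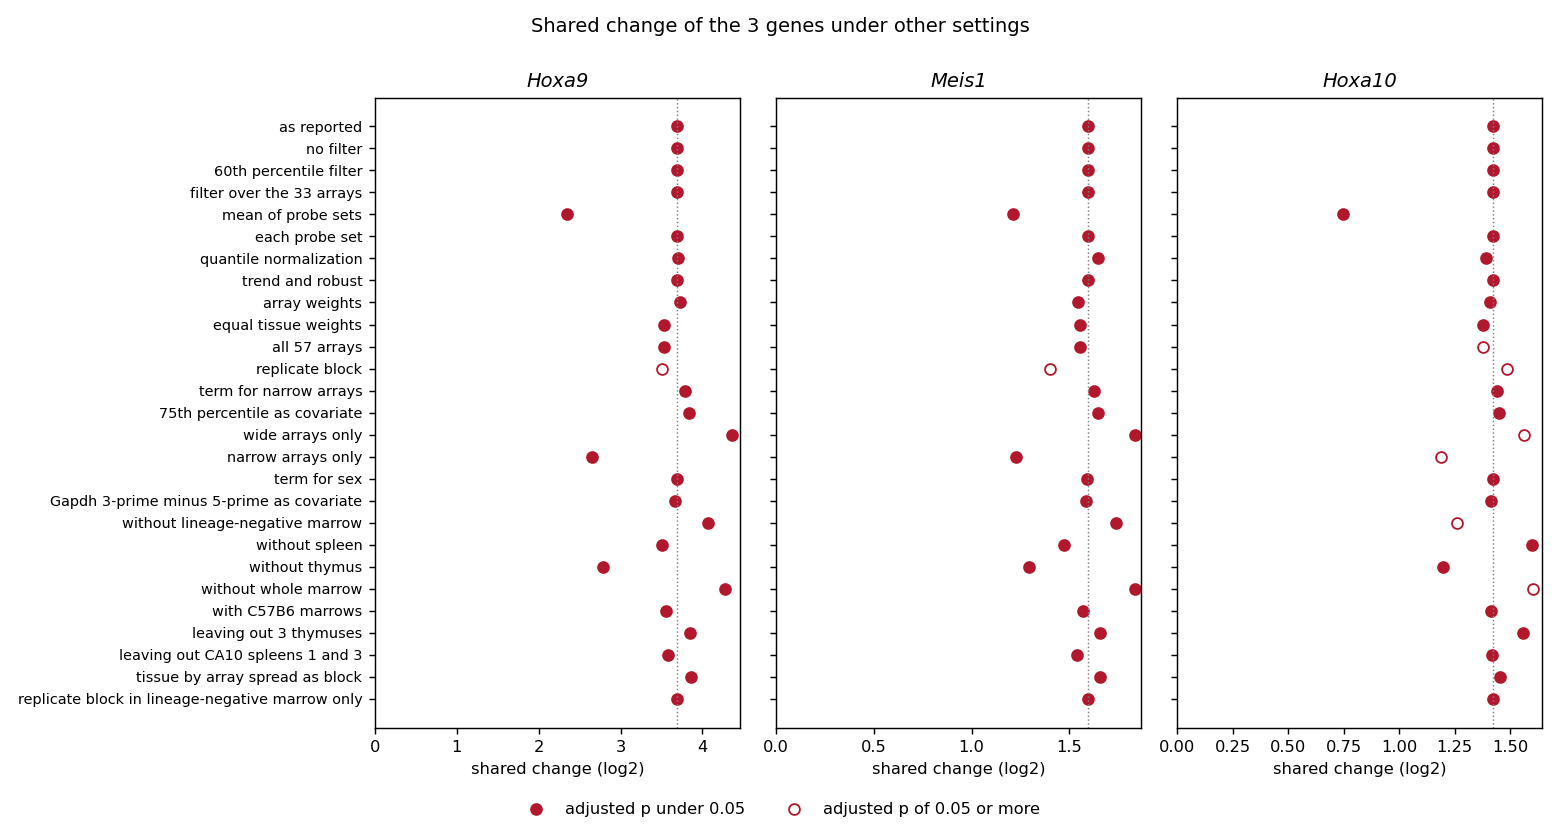
Shared change (x axis, log2) of Hoxa9, Meis1 and Hoxa10 under each setting (rows), filled where the adjusted p is under 0.05; dotted lines mark the reported values of 3.69, 1.59 and 1.42. All changes are above 0, Hoxa9 and Meis1 are called in 25 of 26 other settings and Hoxa10 in 20.

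The choice of probe set mattered for the HOXA genes. A second Hoxa9 probe set gave a shared change of 0.99 ± 0.19 and was not called (adjusted p = 0.0616 over probe sets). On it CA10 whole marrow had 7.72, 7.85 and 7.69, against 6.48, 6.45 and 6.41 on the wide and 7.42, 7.22 and 7.57 on the narrow wild-type arrays. The groups stayed apart there. Yet most of the distance to the wide wild-type arrays was also seen between wild-type arrays of different spread and sex. When the probe sets of each gene were averaged, the shared change was 2.34 for Hoxa9 and 0.75 for Hoxa10, both still called. Tested one by one, 5 of 28032 probe sets were called higher (0.0178%) and none lower: 1 each of Hoxa9, Hoxa10 and Hoxa5 and 2 of Meis1.

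The other HOXA genes moved less. Of the 11 genes of the cluster 8 passed the filter on low signals, Hoxa9 and Hoxa10 among them. These 2 were called, and with them 6 of the 8 were higher at an unadjusted p under 0.05 (75%, against 2.71% of all genes). The filter used all 57 arrays, and Hoxa10, at 3.35 to 4.04 in wild type, passed it through arrays of transgenic mice. Hoxa11, with higher wild-type means of 4.13 to 4.46, did not pass. Which genes make up the 8 thus depends partly on the changes themselves. The median shared change of the 8 was 0.53, against -0.002 over all genes. In whole marrow the mean signal of the 8 was 6.21, 6.25 and 5.99 in CA10, all on narrow arrays. In wild type it was 5.74, 5.87 and 5.71 on narrow arrays and 5.36, 5.34 and 5.23 on wide ones. Hoxa7, beside Hoxa9 in the cluster, had 7.49, 7.21, 7.07 and 7.54 in CA10 thymus, against 5.67, 6.36 and 6.83 (lowest, median and highest of 7) in wild-type thymus. The groups were apart there and in lineage-negative marrow (7.40, 7.41 and 7.74 in CA10, against 7.32, 7.21 and 7.21), but overlapped in spleen and whole marrow. Its shared change was 0.57 ± 0.14 (adjusted p = 0.526), and over the narrow arrays, which compare marrow alone, it was -0.0267. Hoxa4 had 0.49 ± 0.22, Hoxa2 0.23 ± 0.10, Hoxa3 0.09 ± 0.16 and Hoxa13 0.00 ± 0.13, none of them called. A second Hoxa3 probe set, of lower signal, gave 0.70 ± 0.15 (limma adjusted p = 0.110 over probe sets). On it the differences were 0.73 in lineage-negative marrow, 0.25 in spleen, 1.16 in thymus and 0.42 in whole marrow.

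Hoxa5, which lies between Hoxa4 and Hoxa6, depended on the probe set. The brighter probe set, which stood for the gene, gave 0.61 ± 0.24 (adjusted p = 0.796). On the other, lineage-negative CA10 marrow had 7.24, 7.49 and 7.29, against 5.54, 5.80 and 5.60 in wild type, and CA10 spleens had 6.87, 7.25, 7.16, 7.36 and 7.80, against 5.67 and 5.93. Both tissues were apart, with every CA10 array above every wild-type array. CA10 thymuses had 9.62, 8.15, 8.0 and 9.36, against 4.94 to 6.25 in 6 wild-type thymuses and 8.48 in the library labelled wild-type thymus 2. Whole marrow overlapped, at 6.09, 6.28 and 5.50 in CA10 and 5.12 to 5.88 in wild type. The shared change on it was 1.62 ± 0.25 (adjusted p = 0.00206 over all probe sets). The brighter probe set also read 9.72 on the narrow wild-type thymus 6 and 7.97 to 8.30 on the narrow wild-type marrows, against 6.53 to 6.79 on the wide ones. On this probe set the narrow and wide wild-type marrows thus lay further apart than its shared change of 0.61.

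**Figure D4:**
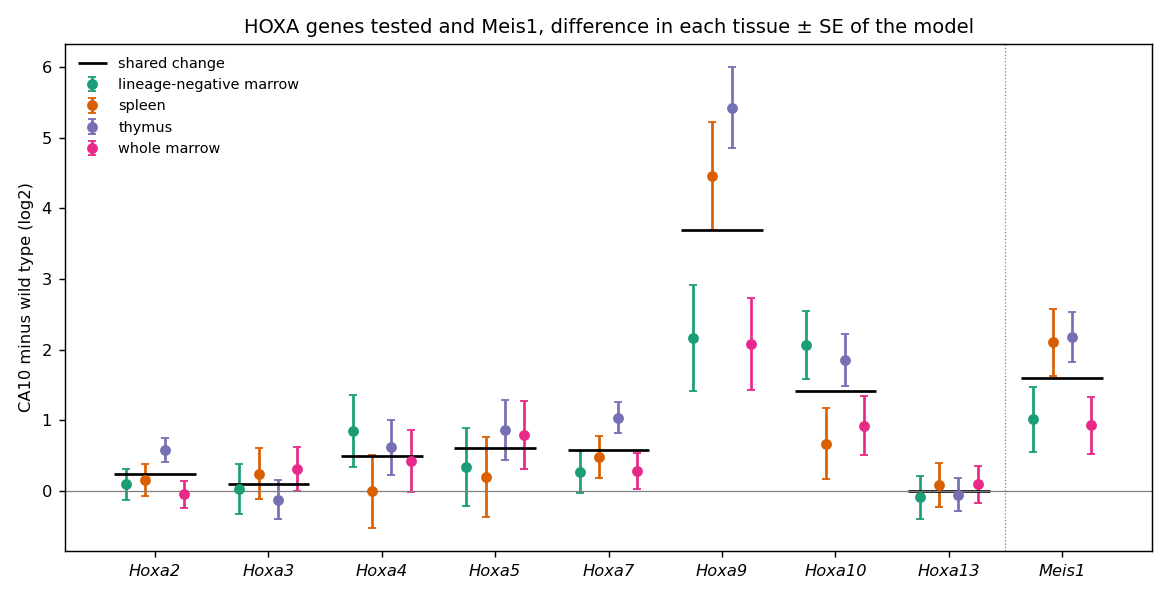
CA10 minus wild type (y axis, log2) for the 8 HOXA genes tested and Meis1 (x axis), as points for each tissue with the SE of the model and as black bars for the shared change. Hoxa9, Hoxa10 and Meis1 lie above 0 in all tissues, and Hoxa9 reaches 4.46 in spleen and 5.42 in thymus.

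No gene of the other HOX clusters was called. HOXB genes, which are also expressed in stem and progenitor cells, had a median shared change of 0.16 over 6 of 10 tested, with 2 higher at an unadjusted p under 0.05, a level that 2.71% of all genes passed upward. These were Hoxb2 (0.48 ± 0.17) and Hoxb6 (0.29 ± 0.11). In whole marrow the mean signal of the 6 HOXB genes was 5.48, 5.59 and 5.53 in CA10, all on narrow arrays. In wild type it was 5.39, 5.55 and 5.42 on narrow arrays and 5.0, 5.08 and 5.11 on wide ones. HOXC and HOXD genes had a median of 0.08 over 8 of 18 tested, and 1 of the 8 was higher at an unadjusted p under 0.05, Hoxc9 (0.30 ± 0.09).

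Among the cofactors Meis1 alone was called of 8 tested, and the median was 0.05. Meis2 had 0.18 ± 0.14 and Meis3 -0.03 ± 0.11. Pbx3, a cofactor that binds with both HOXA9 and MEIS1, had 7.92, 8.26 and 6.94 in lineage-negative CA10 marrow, against 7.19, 7.41 and 6.00 in wild type. In whole marrow the order was the other way round, with 6.98, 7.32 and 6.73 in CA10 and 6.80, 7.49 and 8.40 (lowest, median and highest of 6) in wild type. The groups overlapped in both. All CA10 whole marrows were narrow arrays. The narrow wild-type whole marrows had Pbx3 at 7.31, 7.12 and 6.80, and the wide ones at 8.40, 7.67 and 7.71. The shared change of Pbx3 was 0.07 ± 0.23 (adjusted p = 0.956), with a sign that depended on the setting.

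Of the fusion's partner genes only Mllt10, the mouse gene for AF10, was tested, and it was not called. Its signal ran from 8.23 to 9.61 over the CA10 arrays and from 8.12 to 9.81 over the wild-type arrays, with a shared change of -0.16 ± 0.14. The Picalm gene, which encodes CALM, was not analysed here. Bmi1, a polycomb gene close to the MLLT10 locus in the human genome that has been reported high in human leukemias with this fusion, had -0.11 ± 0.13 (adjusted p = 0.868). Its signals in CA10 whole marrow were 7.54, 7.77 and 7.73, within the 7.47 to 8.64 of wild type. Of the 5 genes tested in the list of fusion partners and Bmi1 neighbours none was called, with a median of -0.13. None of 12 genes of the DOT1L and AF10 complexes was called either. Their median was -0.05, and Dot1l itself had -0.04 ± 0.08.

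A list of 16 tested genes linked to HOX-driven leukemia also held no call, with a median of 0.07. In this list Mecom had 0.27 ± 0.27, Flt3 0.18 ± 0.21, Myb 0.16 ± 0.43 and Sox4 0.07 ± 0.31. Bcl2, which encodes a survival protein, had -0.49 ± 0.17 and was the one member with an unadjusted p under 0.05 (3.04% of all genes were lower at that level). The stem and progenitor list, 16 genes including Kit and Cd34, had a median of 0.06 and no call.

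Lists of cell type markers show which cell mixtures moved beside the 3 genes. No member of the 32 lists without Hoxa9, Hoxa10 or Meis1 was called, and their median shared changes ran from -0.30 (B cell markers) to 0.98 (late neutrophil granule genes), with the next highest at 0.39. Of 12 late granule genes tested 8 were higher at an unadjusted p under 0.05 (66.7%, against 2.71% of all genes). S100a9, a calcium-binding protein of neutrophils, had 1.36 ± 0.40, Ltf, which encodes lactoferrin, 1.27 ± 0.42, and Camp, the cathelicidin gene, 1.02 ± 0.38, all with an adjusted p of 0.796. The list median was not higher in every tissue. It was 1.47 in lineage-negative marrow, 1.00 in spleen, 1.45 in thymus and -0.0005 in whole marrow. Of the 12 members 5 had a higher CA10 mean in all 4 tissues (41.7%, against 5.79% of all genes).

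The mean late granule signal per array ran from 6.25 to 8.70 in lineage-negative CA10 marrow, against 5.49 to 6.73 in wild type. It ran from 7.94 to 11.51 in CA10 spleens, against 8.88 and 8.91 in wild-type spleens, so the spleen groups overlapped. CA10 thymuses had 6.71 to 7.63, against 5.60 to 7.37 in wild type, where the highest was the library labelled wild-type thymus 2. Whole marrow had 12.66 to 12.92 in CA10 and 12.45 to 13.01 in wild type, and the groups overlapped. In that tissue Hoxa9, Meis1 and Hoxa10 differed by 2.07, 0.93 and 0.92. Without CA10 spleens 1 and 3 the late granule median was 0.77, with 7 genes at an unadjusted p under 0.05. Primary granule genes, made earlier in neutrophil development, had a median of 0.39 over 8 tested, from -0.84 in lineage-negative marrow to 1.39 in spleen. Without CA10 spleens 1 and 3 that median was 0.13.

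Markers of mature B and T cells had medians below 0. B cell markers had -0.30 over 16 tested and T cell markers -0.23 over 16 tested, and in both lists all tested members were below 0. Without CA10 spleens 1 and 3 the B cell median was -0.08 and the T cell median -0.17. Without the 3 thymuses that stood apart the T cell median was -0.29, with 7 of 16 members lower at an unadjusted p under 0.05, against 1 of 16 with all arrays. Over all genes 810 of 15314 were lower at that level without these thymuses, against 466 with all arrays. B cell precursor markers had a median of 0.14, with 8 of 11 tested members above 0 and none called. MHC class II genes had a median of -0.23 over 9 tested, mitotic genes -0.09 over 18 and erythroid genes 0.02 over 15. The part of the cell mixture in the results for single genes was not tested.

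**Figure D5:**
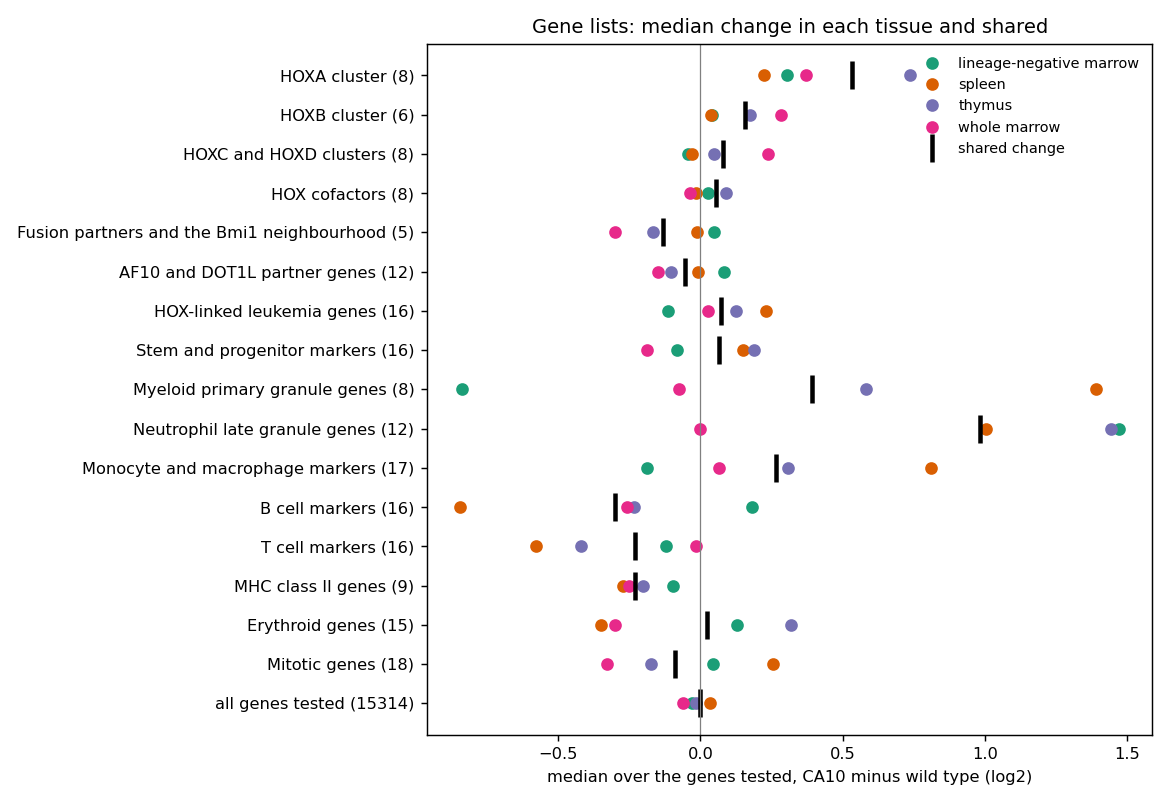
Median CA10 minus wild-type change (x axis, log2) over the tested genes of each list (rows, number tested in brackets), as points for the 4 tissues and black bars for the shared change. Late granule genes lie near 1.5 in lineage-negative marrow and thymus and near 0 in whole marrow, whereas the HOXA list is above 0 in all 4 tissues.

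The genes ranked just outside the threshold were lower in CA10. They were picked after their values were seen. Mfhas1, a leucine-rich repeat gene, had 7.52, 7.71 and 7.80 in lineage-negative CA10 marrow, against 8.31, 8.85 and 8.33 in wild type, and 7.48, 7.36 and 7.38 in CA10 whole marrow, against 8.07 to 8.51 in wild type. These groups were apart, but in spleen and thymus they overlapped. The share of all genes with groups apart and lower within 1 tissue was not counted. Its shared change was -0.55 ± 0.11 (adjusted p = 0.106). Crlf3, a cytokine receptor-like gene, had -0.75 ± 0.16 (adjusted p = 0.147). CA10 whole marrows, all narrow arrays, had 8.44, 8.51 and 8.84. Wild-type whole marrows had 9.48, 9.50 and 9.17 on narrow arrays and 9.97, 10.10 and 10.14 on wide ones. Mfhas1 and Crlf3 were both called lower when the library labelled wild-type thymus 2 was left out, which gave 5 calls. Wild-type marrows of different label lay apart in a direction that depended on the Mfhas1 probe set. The mean in marrow labelled C57B6 was 9.14 on the probe set used, against 8.28 in the other wild-type marrows, and 7.88 on the second, against 8.52. Khdrbs3 was the single gene with groups apart and lower in 3 of 4 tissues (0.00653%), yet its shared change was -0.16 ± 0.28, since wild-type thymus 2 (8.10) and CA10 thymus 3 (7.81) were both far above the remaining thymuses.

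Whether the effect of CA10 differed between tissues was tested with an F test of 3 interaction terms. No gene was called by limma (0%), and 292 had an unadjusted p under 0.05 (1.91%). The smallest p belonged to Reep1, an endoplasmic reticulum shaping gene, with an adjusted p of 0.0614. Its signals were 3.91, 5.23, 4.64 and 4.56 in CA10 thymus, against 5.54, 5.83 and 6.30 (lowest, median and highest of 7) in wild type. The thymus difference was -1.35, and the other 3 tissues differed by 0.30 or less in size. Reep1 was called under 7 of the 19 other settings in which this test was run, such as a term for sex (adjusted p = 0.0443). Under the other 12 settings no gene was called. After Reep1 came Syn2, Slit2, Krtap5-4, Hoxa9 and Zfp446, all with an adjusted p of 0.9997. For Meis1 the interaction p was 0.0596 and for Hoxa10 0.101, so a difference of their effects between tissues was not shown. Over all genes 886 had a higher mean in CA10 in each of the 4 tissues (5.79%) and 1242 a lower one (8.11%).

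The second transgenic line of the series, NHD13, carries a NUP98-HOXD13 fusion under the vav promoter, and its clinically healthy mice were sampled in lineage-negative marrow, thymus and whole marrow (3 arrays each). The 10 CA10 arrays of these 3 tissues were set against these 9 in 1 model. The CA10 arrays are the same as in the comparison with wild type. Of 15314 genes 20 were called (0.131%), 14 higher in CA10 (0.0914%) and 6 lower (0.0392%). Hoxa9 and Hoxa10 were not among them, at 0.05 ± 0.77 and 0.00 ± 0.54. NHD13 whole marrow had Hoxa9 at 9.68, 10.03 and 8.87, above the 7.65 to 7.90 of CA10, but the other tissues overlapped and varied widely, for example 11.16, 9.18, 5.78 and 11.16 in CA10 thymus and 6.78, 8.35 and 11.66 in NHD13 thymus. The SE of 0.77 leaves room for differences of more than 1 unit either way. In whole marrow all CA10 arrays had a narrow spread and none of the NHD13 arrays did. Genotype and array spread therefore cannot be told apart in that tissue, for any gene. Among wild-type whole marrows Hoxa9 was 5.06, 5.24 and 5.29 on narrow arrays and 5.73, 6.81 and 6.05 on wide ones.

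Meis1 was at 7.09, 7.01 and 6.84 in CA10 whole marrow, against 6.22, 6.71 and 6.90 in NHD13, and at 7.82, 7.80 and 8.23 in lineage-negative CA10 marrow, against 6.68, 5.87 and 6.82 in NHD13. The lineage-negative groups were apart and the whole marrow groups overlapped. How many of all genes were apart between CA10 and NHD13 was not counted. The CA10 minus NHD13 difference of Meis1 was 1.27 ± 0.35 (adjusted p = 0.300). Pbx3 was the HOX cofactor that did differ, at -3.19 ± 0.36 (adjusted p = 0.000105). Pbx3 signals were 6.98, 7.32 and 6.73 in CA10 whole marrow, against 10.29, 9.91 and 10.76 in NHD13, and 5.90 to 6.55 in CA10 thymus, against 10.15 to 11.37 in NHD13. NHD13 lineage-negative array 3 had a Gapdh 3′ minus 5′ signal of 2.95 and a narrow spread of signals. Without that array 1773 genes were called, among them Meis1 (1.31, adjusted p = 0.0376), Hoxa7 (-0.56, adjusted p = 0.0395) and Hoxa5 (0.65, adjusted p = 0.0292). The sign for Hoxa5 depended on the probe set. With that array kept it was 0.53 on the probe set used and -0.62 on the other, neither called.

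The 3 genes were also high in spleens of CA10 mice with leukemia, which were not part of the comparison. Over 6 such arrays the lowest, median and highest signals were 8.19, 9.09 and 11.29 for Hoxa9, 6.63, 8.98 and 9.46 for Meis1 and 4.02, 5.23 and 7.16 for Hoxa10. The healthy CA10 spleens lay inside these ranges for Meis1 and Hoxa10, while their Hoxa9 values of 8.11, 8.13 and 7.89 were below the lowest leukemic spleen.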

How the data were processed

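RNA of mouse bone marrow, spleen and thymus was hybridised to Affymetrix mouse expression arrays. The authors deposited log2 signals and RMA was used according to the submitters' processing notes, with the version not given in the sources used here. The table held 44943 probe sets, of which 34842 named 1 gene and were used. Of several probe sets for 1 of the 18165 genes, the brightest over the 57 arrays was kept, and 15314 lay above the 40th percentile of at least 3 arrays. The main test was limma 3.58.1 (lmFit, eBayes, R 4.3.3) with tissue and genotype as terms, Benjamini-Hochberg adjustment and a threshold of 0.05. Models with 1 mean for each genotype and tissue gave the differences within tissues and the interaction F test. The number of arrays limits the precision. The procedure was tested on simulated data. Named genes were up to 12 rises and 12 falls called with 1 sign in all tissues, fixed HOX, cofactor and fusion genes, called list members and the 6 genes with the smallest interaction p. The samples compared, the genes and the 34 lists were chosen with earlier results of these data known, and 4 alternatives were added after seeing the data. A promoter is the 250 bases before a RefSeq start.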

Additional observations from a re-analysis of the deposited data

Results flagged for a closer look

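Over 16 genes and the 4 groups of 4 to 7 arrays, 64 sets of values were checked for a single array far from the others, and 6 were found. Chance gives about 1 in 20. Hoxa5 was 7.64 in CA10 thymus 2, against 8.48 to 8.59 in the other CA10 thymuses. Pbx3 was 6.08 in CA10 spleen 3, which also had high granule genes, against 7.84 to 8.10 in the other CA10 spleens, and 4.29 in wild-type thymus 6, an array of narrow spread, against 5.94 to 6.86 in the others. Khdrbs3 was 8.10 and Zfp446 5.20 in the library labelled wild-type thymus 2, against 4.29 to 5.09 and 5.54 to 5.79 in the other wild-type thymuses. Slit2 was 4.28 in wild-type thymus 3, against 4.49 to 4.59. Every CA10 array was below wild type for Zfp446 in spleen (difference -0.17) and above it in whole marrow (difference 0.80). The difference between this pair of tissues was not tested on its own, and the interaction test over 4 tissues gave an adjusted p of 0.9997.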

How the results depend on the processing

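Of 26 other settings Hoxa9 and Meis1 were called in 25 and Hoxa10 in 20, and all 3 were called with each of the 33 arrays left out in turn. Their shared changes then ran from 3.39 to 3.93, from 1.43 to 1.72 and from 1.17 to 1.59. The count of calls, 3 as reported, was 5 with the mean of probe sets (adding Hoxa5, and Mfhas1 lower), 5 with array weights (adding Mfhas1 and Crlf3, both lower), 5 without the 3 thymuses, 6 over the narrow arrays alone, and 3 to 5 with 1 array left out. The count with 1 sign in all tissues compared was the same in each case, where the narrow arrays compare marrow alone. With the replicate number as a block within tissues both counts were 0, with changes of 3.51 (adjusted p = 0.0802) for Hoxa9, 1.40 (0.151) for Meis1 and 1.49 (0.151) for Hoxa10. Same-numbered arrays correlated above 0.1 in 3 of 3 pairs in lineage-negative marrow (0.2 to 0.695), where array 3 was narrow in both genotypes, but in 0 of 2 in spleen, 1 of 4 in thymus and 0 of 3 in whole marrow. With the replicate number as a block in lineage-negative marrow alone, added after seeing the data, the same 3 genes were called (adjusted p = 1.4e-05, 0.000491 and 0.00573). Hoxa10 was also not called over all 57 arrays (1.38, adjusted p = 0.486).

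The interaction test called 0 genes as reported, 1 with no filter, trend and robust settings, the 75th percentile as covariate, a term for sex or the C57B6 marrows, 3 without the 3 thymuses, 5 with array weights, and 0 to 1 with 1 array left out. It was not fitted with the blocks or over the narrow arrays. CA10 minus NHD13 called 20 genes as reported, 5 with the replicate block, 11 with a term for narrow arrays, 11 with a term for sex, 333 with Gapdh 3′ minus 5′ as covariate, and 6 to 1773 with 1 array left out.

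Genes that were not called changed sign in some settings; the cause was not tested. Pbx3 was -0.0295 with the mean of probe sets, -0.0746 with the block, -0.13 without lineage-negative marrow, -0.0164 with C57B6 marrows and -0.0373 to 0.14 with 1 array left out. Bmi1 was 0.0119 with array weights, 0.00312 with the 75th percentile and 0.0226 over narrow arrays. Krtap5-4 was 0.0275 with the block, 0.13 over narrow arrays, 0.077 without lineage-negative marrow, 0.11 without thymus, 0.0345 with C57B6 marrows, 0.0016 without the 3 thymuses and -0.0857 to 0.0159 with 1 array left out. Syn2 and Zfp446 were -0.0945 and -0.15 over wide arrays and -0.13 and -0.15 without whole marrow, and Zfp446 was -0.0155 with tissue by spread as block. Over narrow arrays Hoxa7 was -0.0267, Reep1 0.12 and Mllt10 0.26. Reep1 was 0.13 without thymus and Slit2 -0.0304 without lineage-negative marrow. CA10 minus NHD13 was -0.0457 for Hoxa5 with the mean of probe sets. For Hoxa9 it was -0.17 with the block, -0.18 with Gapdh and -0.47 to 0.44 with 1 array left out. For Hoxa10 it was -0.24 with the block, -0.18 with a term for sex, -0.10 with Gapdh and -0.25 to 0.46 with 1 array left out.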

Other observations

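A few genes outside the HOX and granule lists had a shared change of at least 1 without a call, all with an adjusted p of 0.796. Dsp, which encodes the junction protein desmoplakin, had 1.13 ± 0.36, with 2.68 in lineage-negative marrow, 1.33 in spleen, 0.27 in thymus and 0.90 in whole marrow. It was called over the narrow arrays alone. Rpl27a, a ribosomal protein gene, had 1.12 ± 0.32, and Hbb-b2, an adult globin gene, had 1.05 ± 0.41. Cyp2e1, a cytochrome P450 gene, had 1.24 ± 0.50, which came mainly from thymus (3.26), while spleen had -0.96.

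The list of p53 targets and apoptosis genes held no call, with a median of -0.09 and 5 of 15 tested members above 0. Zmat3 had -0.47 ± 0.15 and Mdm2, the p53 ubiquitin ligase gene, -0.36 ± 0.13, and 3 of 15 tested members of the list, with Bcl2, were lower at an unadjusted p under 0.05, against 3.04% of all genes. Itgax, which encodes the dendritic cell integrin CD11c, had -0.45 ± 0.125 (adjusted p = 0.796).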
